A study of Mus musculus with 6 samples.

Results

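The receptors of the epidermal growth factor receptor (EGFR) family and the ligands of EGFR were examined in MLE-12 cells, a mouse lung epithelial line, that were made to overexpress NR4A1. The genes were chosen by symbol, as the rows named Egfr, Erbb2, Erbb3, Erbb4, Ereg, Areg, Btc, Hbegf, Tgfa and Epgn, and all 10 were found among the 34745 genes of the expression table. Of these, 4 encode receptors and 6 encode ligands. There were 2 groups of 3 libraries each. In the first group MLE-12 cells received an NR4A1 expression plasmid by lipid-mediated transfection, and in the second they received the empty pCMV-SPORT6 vector. Both groups are thus transiently transfected cells of 1 established line, and the interval between transfection and RNA collection is not given in the sources used here. The comparison asks which transcripts differ when NR4A1, an orphan nuclear receptor that binds DNA, is raised in lung epithelial cells.

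EGFR and its relatives ERBB2, ERBB3 and ERBB4 are receptor tyrosine kinases of the cell surface. Their ligands are made as membrane-anchored precursors and released by proteases, after which bound receptors pair and signal through the RAS-MAPK and PI3K-AKT pathways. ERBB2 has no known ligand of its own and acts as a partner, and ERBB3 has little kinase activity. In lung epithelium the family is known for roles in branching, alveolar maturation and repair.

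Library totals were 15019038 to 17574340 counts, so that 3 counts correspond to 0.171 to 0.20 CPM, the count scaled to the library total. Nr4a1, the overexpressed gene, had 50660, 60093 and 68555 counts in NR4A1 replicates 1, 2 and 3 and 428 to 510 in the vector libraries (log2 fold change 7.07, SE 0.14, adjusted p = 2.13e-06, edgeR). NR4A1 replicate 2 stood apart from the rest. It lay at 57.4 on the first principal component, which carried 46% of the variance, with the other 5 libraries between -20.8 and 2.24. It also held 350 genes at 1 CPM or more and at least 10 times above every other library, against 10 such genes in vector replicate 1 and at most 1 in each of the others. The members' results are therefore given with and without NR4A1 replicate 2. Of 12 lung epithelial markers, Sftpa1 had no count, Sftpd and Cldn4 had at most 2, and Epcam had 2 to 22, whereas Sftpc (1013 to 1389 counts), Sftpb, Nkx2-1, Abca3, Cdh1, Krt8 and Krt19 were present in every library. Krt18 had 164 counts in NR4A1 replicate 2 and 2 to 21 elsewhere. Nothing in the labels says that the replicates were separate cultures, so the p-values measure the spread between these libraries, which may be technical.

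Of the receptors and ligands chosen here, Erbb2 and Erbb3 carried the receptor side in the vector controls and Hbegf the ligand side. Levels of different genes were compared as FPKM, the count scaled by transcript length and by the library total. Erbb2, the partner receptor, was highest at 23.5 ± 0.352 FPKM (SD, n = 3). It was followed by Hbegf, which encodes heparin-binding EGF-like growth factor, at 13.1 ± 1.42 FPKM and by Erbb3 at 11.2 ± 1.07 FPKM. Btc (betacellulin) had 1.12 ± 0.0363 FPKM, Areg (amphiregulin) 1.02 ± 0.744 FPKM and Egfr itself 0.481 ± 0.143 FPKM. Tgfa, the transforming growth factor alpha gene, had 0.180 ± 0.0779 FPKM and Epgn (epigen) 0.134 ± 0.0540 FPKM. Ereg (epiregulin) had counts in 1 of the 3 vector libraries and averaged 0.00919 ± 0.0159 FPKM. Erbb4 had no count in any of the 6 libraries, which allows up to 0.171 to 0.20 CPM of the library total by the limit of 3 counts, for counting error only. In this order Hbegf and Erbb3, Btc and Areg, Areg and Egfr, Tgfa and Epgn, and Ereg and Erbb4 overlapped between libraries and are not separated by these data.

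The order of Hbegf and Erbb3 also depended on transcript length. The length behind the authors' FPKM was 2373 bases for Hbegf, against 4834 bases of merged exons in the GENCODE M21 annotation, and with the longer one Hbegf was at 6.42 ± 0.698 FPKM in the vector controls. It was then below Erbb3, whose length of 6016 bases was the same in both. The order of the other genes with counts did not change with this length.

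**Figure D1:**
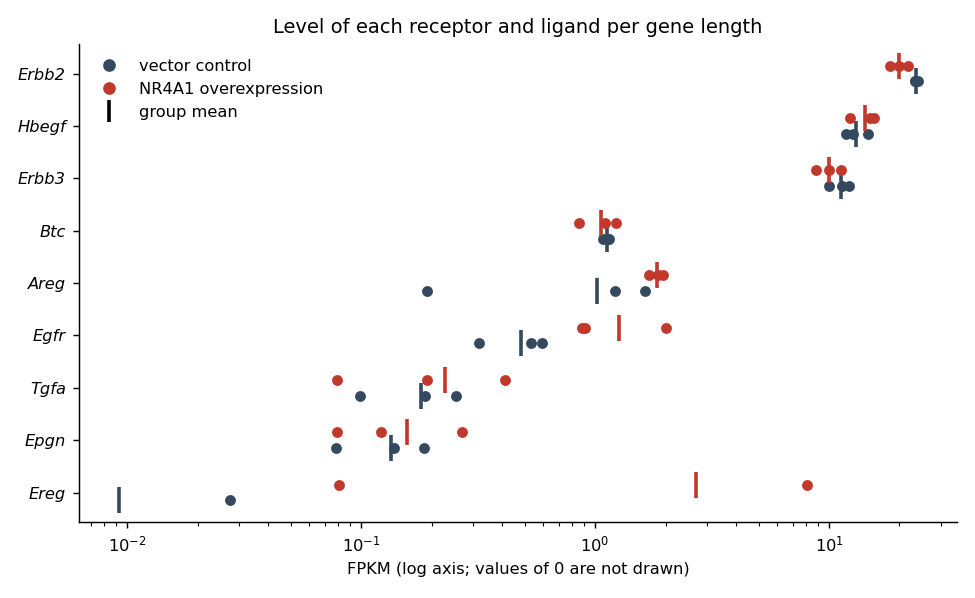
FPKM of the 9 genes with counts in each library on a log axis, with vector controls in grey and NR4A1 overexpression in red (points, libraries; bars, group means; values of 0 not drawn). Erbb2, Hbegf and Erbb3 lie near 10 FPKM or above in both groups, and Ereg lies at 8.01 FPKM in NR4A1 replicate 2 and under 0.1 FPKM in every other library.

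Erbb2 and Erbb3 made most of the receptor pool in every library. Summed receptor FPKM was 30.4 to 32.6 in the NR4A1 libraries and 33.6 to 36.6 in the vector libraries. Erbb2 made 60.1% to 69.2% of that sum, and Erbb3 28.5% to 36.9%. Egfr made 2.98%, 6.54% and 2.70% in NR4A1 replicates 1, 2 and 3 and 0.950% to 1.68% in the vector libraries. Neither the sum nor the share of Egfr overlapped between the groups. The sum is mostly Erbb2, so both largely restate the values of Erbb2 and Egfr themselves. Of all single genes tested, 6.69% were higher and 6.22% lower without overlap. The ligand pool counts only the ligands chosen here, without Egf and the neuregulin genes. In 5 libraries it was 14.5 to 18.1 FPKM in sum with 78.7% to 87.8% from Hbegf. In NR4A1 replicate 2 it was 27.1 FPKM, of which Hbegf made 57.5% and Ereg 29.6%, while Ereg made at most 0.518% in any other library. These shares also depend on the lengths used, among them those of Hbegf and Btc. With the GENCODE lengths Hbegf made 58.9% to 70.4% in the other 5 libraries. In NR4A1 replicate 2 it made 38.6% and Ereg 40.4%, so that their order turned. The share of Btc in the other 5 libraries was 6.09% to 7.90% by the authors' lengths. By those of GENCODE it was 16.5% to 21.6%.

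No receptor or ligand passed the test for a change with NR4A1. Of the 10 genes, 7 had enough counts for the fit across 12941 genes (all receptors but Erbb4, and Areg, Btc, Hbegf and Tgfa), and Erbb4, Ereg and Epgn did not. At an adjusted p under 0.05 and a change of at least 2-fold (edgeR quasi-likelihood test, Benjamini-Hochberg adjustment), 0 members were called higher or lower, against 0.17% of all tested genes called higher and 0% called lower. With the same fold and an unadjusted p under 0.05, 1 member (Egfr) was higher and 0 were lower, against 1.11% and 0.131% of all genes. DESeq2 called 1 member (Egfr) higher and 0 lower, beside 63 higher and 2 lower of the 19306 genes to which it gave a p. Without NR4A1 replicate 2, 0 members were called, against 0.191% of 13084 genes called higher and 0.0229% called lower. Without overlap between groups, 2 of the 7 tested members (Egfr and Areg) were higher in every NR4A1 library and 1 (Erbb2) was lower, where 6.69% of all genes were higher in this way and 6.22% lower. Without NR4A1 replicate 2 the same 3 members did not overlap, beside 13.7% of genes higher and 13.8% lower.

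**Figure D2:**
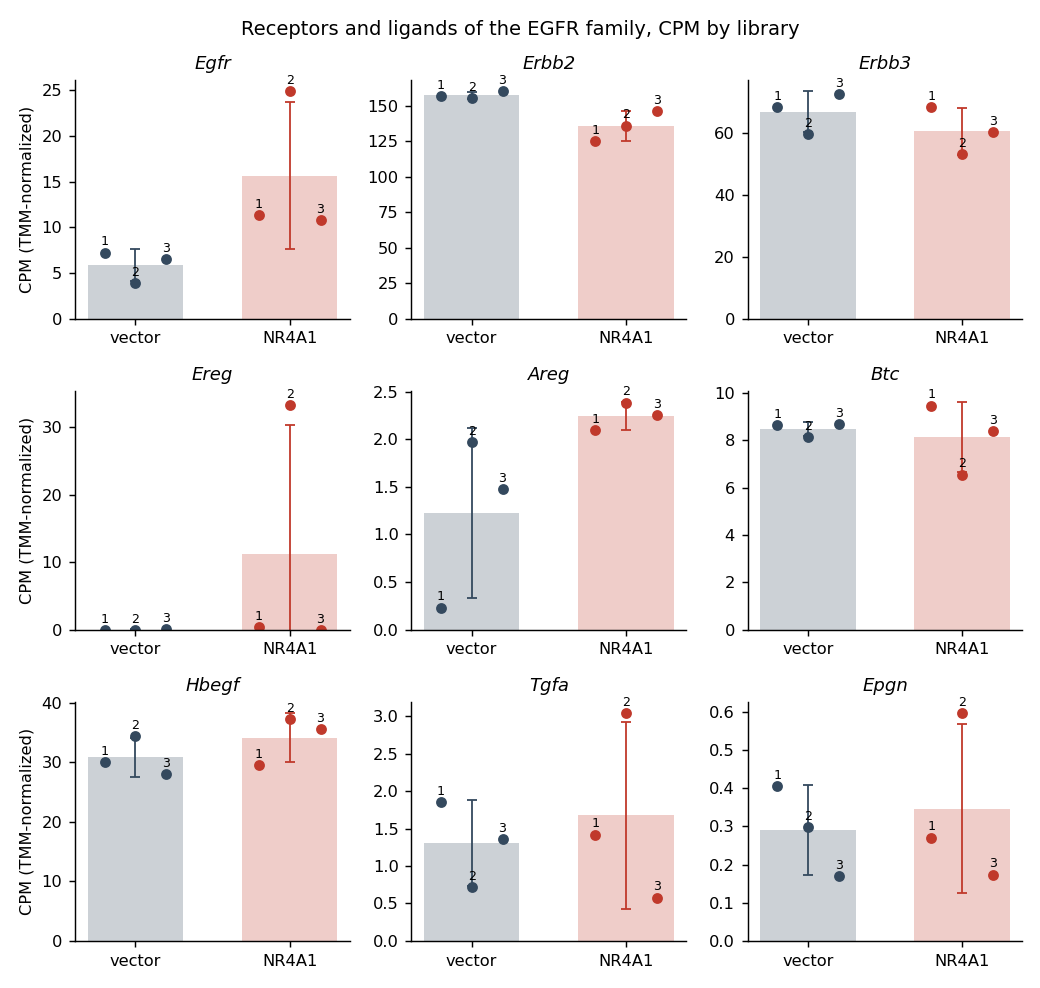
CPM (TMM-normalized, linear axes from 0) of 9 receptors and ligands in each library; points are libraries with their replicate number, bars are group means and error bars are SD (n = 3). NR4A1 replicate 2 is the highest library for Egfr, Ereg, Areg, Hbegf, Tgfa and Epgn, by a small margin for Areg and Hbegf. The groups do not overlap for Egfr, Erbb2 and Areg.

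Among the receptors, Egfr had the largest difference. Egfr (ENSMUSG00000020122, chr11:16752203-16918158, plus strand, GRCm38, protein coding) had 167, 418 and 187 counts in NR4A1 replicates 1, 2 and 3 and 125, 65 and 115 counts in vector replicates 1, 2 and 3. Every NR4A1 library was above every vector library, and replicate 2 was 2.21 times the next highest. The means were 15.7 ± 8.0 CPM and 5.88 ± 1.77 CPM (SD, n = 3 each). The log2 fold change was 1.41 (SE 0.39, 95% interval 0.50 to 2.32), with an unadjusted p of 0.00782 and an adjusted p of 0.454 by edgeR. Over the alternatives the adjusted p ran from 0.0477 to 0.996, and the lowest was DESeq2, which gave a log2 fold change of 1.41. Without NR4A1 replicate 2 the log2 fold change was 0.91 (95% interval 0.32 to 1.5, adjusted p = 0.413 by edgeR). The exact two-sided permutation test gave p = 0.1, the smallest that 3 against 3 libraries can give.

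Erbb2 (ENSMUSG00000062312, chr11:98412470-98437716, plus strand) had 1849, 2285 and 2538 counts in the NR4A1 libraries and 2708, 2604 and 2834 in the vector libraries. After normalization every NR4A1 library (125 to 147 CPM) was below every vector library (155 to 161 CPM). The log2 fold change was -0.21 (SE 0.079, 95% interval -0.40 to -0.03), with an unadjusted p of 0.0295 and an adjusted p of 0.694 by edgeR, and it was -0.21 without NR4A1 replicate 2 (adjusted p = 0.608). Mien1, which overlaps Erbb2 on the other strand, had 510 to 727 counts, and whether the counting used strand is not given in the sources used here. Of the 8 epithelial markers tested, 4 (Nkx2-1, Sftpb, Cdh1 and Krt8) were likewise lower in every NR4A1 library, beside 6.22% of all genes, with adjusted p of 0.62, 0.802, 0.639 and 0.847 by edgeR, so none of them passed. The other 4 (Sftpc, Abca3, Krt18 and Krt19) overlapped, with log2 fold changes of 0.077, -0.031, 2.61 and -0.25. Their part in the Erbb2 value was not tested, and in bulk libraries fewer cells of a type and less RNA per cell cannot be told apart.

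Erbb3 (ENSMUSG00000018166, chr10:128567523-128589652, minus strand) had 1013, 893 and 1043 counts in the NR4A1 libraries and 1183, 1001 and 1284 in the vector libraries. The groups overlapped. Its log2 fold change was -0.14 with a 95% interval of -0.43 to 0.15 (adjusted p = 0.906 by edgeR), and the interval holds no change of 2-fold. It was -0.058 without NR4A1 replicate 2. Erbb4 (chr1:68032186-69108059, minus strand), which was counted in no library, gave nothing to compare.

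**Figure D3:**
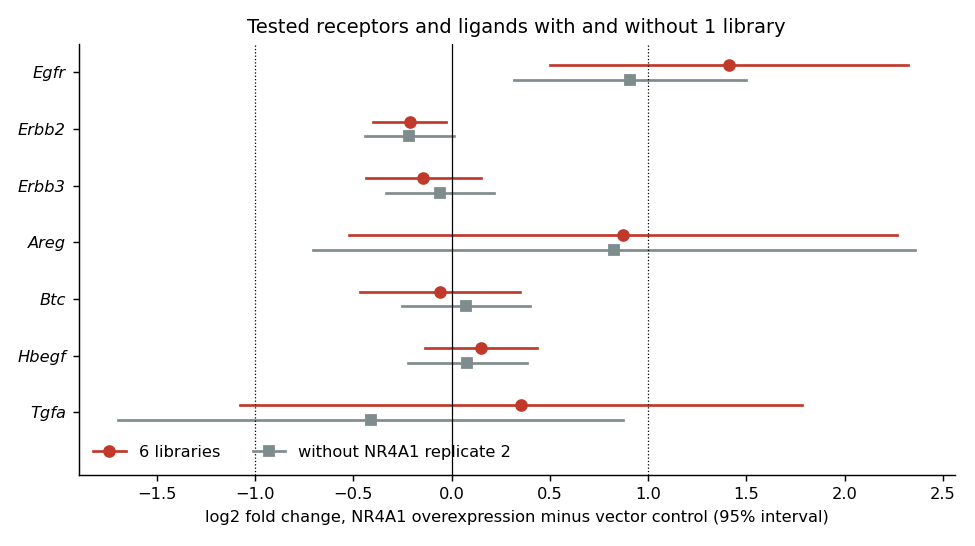
Log2 fold change (NR4A1 overexpression minus vector control) with its 95% interval for the 7 tested genes, with all 6 libraries (red circles) and without NR4A1 replicate 2 (grey squares); dotted lines mark 2-fold. The value of Egfr moves from 1.41 to 0.91, that of Tgfa from 0.35 to -0.41, and those of Erbb2, Erbb3, Btc and Hbegf stay within 0.3 of 0.

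Among the ligands, Ereg was counted almost entirely in 1 library. Epiregulin binds EGFR and ERBB4. Its gene (ENSMUSG00000029377, chr5:91074622-91093646, plus strand) had 5, 560 and 0 counts in NR4A1 replicates 1, 2 and 3 and 0, 0 and 2 counts in vector replicates 1, 2 and 3. The NR4A1 mean was 11.2 ± 19.2 CPM (SD, n = 3), with an SD above the mean, and replicate 2 was 98.7 times the next highest library. The groups overlapped, and the exact two-sided permutation test gave p = 0.4. Ereg fell short of the count filter, and a fit with no filter gave an adjusted p of 0.808 by edgeR. It passed the other filter, a mean of at least 10 counts, under which 8 members were tested and 0 called. DESeq2 gave a p to 8 of the 9 members with counts, so either Ereg or Epgn had none. Without NR4A1 replicate 2 there were 5 counts in 2 libraries against 2 counts in 3 libraries, a ratio of 4.03 per count sequenced with an exact 95% interval of 0.659 to 42.3 that covers counting error only. A difference in Ereg was thus not detectable in the other 5 libraries at this depth.

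Ereg lies in a cluster of 4 of the 6 ligand genes within 376 kb of chromosome 5, and its ligand neighbours did not stand apart to that extent in NR4A1 replicate 2. From left to right these are Epgn (chr5:91027464-91035215), Ereg, Areg (chr5:91139599-91148432) and Btc (chr5:91357261-91402994, minus strand). In NR4A1 replicate 2 Epgn had 10 counts, Areg 40 and Btc 110, against 3 to 7, 4 to 39 and 136 to 153 in the other libraries. Gm42532, a gene on the minus strand that overlaps the start of Ereg, did have counts in that library alone, with 6 there and 0 in the other libraries.

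Areg, the ligand of EGFR that is most often linked to epithelial repair, had 31, 40 and 39 counts in the NR4A1 libraries and 4, 33 and 26 in the vector libraries. The groups did not overlap, but NR4A1 replicate 1 (2.10 CPM) and vector replicate 2 (1.97 CPM) were close, and vector replicate 1 was low at 0.232 CPM. The log2 fold change was 0.87 (SE 0.59, 95% interval -0.52 to 2.27, adjusted p = 0.875 by edgeR). It was 0.83 without NR4A1 replicate 2 and 0.38 without vector replicate 1, and the exact two-sided permutation test gave p = 0.1, the smallest possible. Depth limits this gene, since counts of 4 to 40 were compared.

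The remaining ligands did not separate the groups. Hbegf had 437, 626 and 616 counts in the NR4A1 libraries and 519, 576 and 495 in the vector libraries, a log2 fold change of 0.15 with a 95% interval of -0.14 to 0.43 (adjusted p = 0.900 by edgeR). Btc had 140, 110 and 145 counts against 149, 136 and 153, a log2 fold change of -0.06 with a 95% interval of -0.46 to 0.35. For both, the interval holds no change of 2-fold. Without NR4A1 replicate 2 the log2 fold changes were 0.081 for Hbegf and 0.073 for Btc. Tgfa (chr6:86195223-86275719, plus strand) had 21, 51 and 10 counts against 32, 12 and 24. Its log2 fold change was 0.35 with an interval of -1.08 to 1.79, and -0.41 without NR4A1 replicate 2. Epgn had 4, 10 and 3 counts against 7, 5 and 3 and fell short of the count filter.

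Upstream sequence is shown for Egfr and Areg, since these were the members higher in every NR4A1 library. RefSeq promoter windows (GRCm38.p6) were matched by symbol for 7 of the 10 genes, and Erbb3, Ereg and Hbegf had none. The 250 bases before each start were searched on both strands for AAAGGTCA, the NBRE element that NR4A1 binds as a monomer, for the nuclear receptor hexamer AGGTCA that the NBRE contains, for the cyclic AMP response element TGACGTCA, for TATAAA and for the GC box GGGCGG. Matches are in capitals, and both runs read 5′ to 3′ on the strand of the gene.
Egfr, chr11:16751953-16752202, plus strand: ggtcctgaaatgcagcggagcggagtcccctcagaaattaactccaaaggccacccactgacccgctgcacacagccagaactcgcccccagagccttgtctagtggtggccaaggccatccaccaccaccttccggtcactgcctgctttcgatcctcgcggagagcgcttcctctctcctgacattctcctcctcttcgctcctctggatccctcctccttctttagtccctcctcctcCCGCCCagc
Areg, chr5:91139349-91139598, plus strand: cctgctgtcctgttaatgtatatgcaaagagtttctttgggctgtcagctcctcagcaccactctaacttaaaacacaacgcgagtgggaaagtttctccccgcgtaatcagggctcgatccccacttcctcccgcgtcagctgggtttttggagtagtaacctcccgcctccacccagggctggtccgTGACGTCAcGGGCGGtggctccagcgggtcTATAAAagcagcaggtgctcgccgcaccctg
The Areg window held TGACGTCA from -61 to -54, GGGCGG from -52 to -47 and TATAAA from -31 to -26, counted from the base before the start as -1. That of Egfr held the GC box on the other strand from -9 to -4. Neither AAAGGTCA nor AGGTCA occurred in any of the 7 windows, while 1.34% and 14% of all 32851 windows of this length held them. The shares were 1.55% for TGACGTCA, 12.4% for TATAAA and 32.7% for GGGCGG. A match here is a run of letters and not a tested site, and a window without one says nothing of binding elsewhere.

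The genes around the receptors were then examined through 5 lists with 83 genes, of which 74 were tested. Over all of them 1 was called higher (Dusp4) and 0 lower, beside 0.17% and 0% of all 12941 genes, whose median log2 fold change was 0.01. Without overlap 9 were higher and 6 lower, beside 6.69% and 6.22% of all genes. Other ErbB ligands, which include the neuregulins that bind ERBB3 and ERBB4, had 2 of 5 genes tested, with log2 fold changes of 0.23 for Egf and 0.16 for Nrg1. The neuregulin gene Nrg1 was at 2.70 to 3.19 FPKM in the vector controls and is not part of the ligand pool above. Ligand shedding and trafficking had 7 of 9 tested and a median of -0.03. Its range ran from Rhbdf2, an inactive rhomboid that guides the sheddase ADAM17, at -0.17 to the metalloprotease gene Adam9 at 0.25, and neither passed. Receptor adaptors and signalling had 36 of 37 tested and a median of 0.01, with 3 higher and 3 lower without overlap, where the shares over all genes were 6.69% and 6.22%.

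Gab2, a docking protein that links receptors to PI3K, was the gene of the adaptor list furthest from 0. It had 291, 378 and 383 counts in the NR4A1 libraries and 204, 185 and 207 in the vector libraries, with no overlap. Its log2 fold change of 0.90 (SE 0.10, adjusted p = 0.0416 by edgeR) passed the test on p but not the 2-fold limit, and it was 0.86 without NR4A1 replicate 2 (adjusted p = 0.0490). Leaving out any 1 of the other 5 libraries gave an adjusted p of 0.102 to 0.229, both limma fits gave 0.0889 and 0.0758, and the replicate block 0.136, so the pass on p was lost in each. Leaving out NR4A1 replicate 2 with vector replicate 1 gave 0.0724 by edgeR. The pass on p was kept with DESeq2 (adjusted p = 3.65e-06). It was also kept by edgeR with other size factors, other count filters or Nr4a1 left out (0.0414 to 0.0481). Pik3r3, a regulatory subunit of PI3K, had a log2 fold change of 0.33 with no overlap (adjusted p = 0.722), and Akt2, at the lower end of the list, had -0.17.

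Receptor inhibitors and degradation had 13 of 14 genes tested, a median of 0.03 and no call. Errfi1, a feedback inhibitor that binds the EGFR kinase, had 253, 966 and 339 counts in the NR4A1 libraries and 319, 240 and 286 in the vector libraries. The groups overlapped, and its log2 fold change was 0.94, and 0.17 without NR4A1 replicate 2. Cblb, a ubiquitin ligase of activated receptors, had a log2 fold change of 0.33 with no overlap (adjusted p = 0.564), and Hgs, which sorts receptors for degradation, had -0.13 with no overlap (adjusted p = 0.875).

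The EGF-responsive genes held the largest differences of the 5 lists. Of 18 genes 16 were tested, with 1 called higher, 0 lower, and 5 higher without overlap (Dusp4, Dusp5, Dusp6, Etv5 and Cdkn1a), beside 0.17% of all genes called higher, 0% called lower and 6.69% higher without overlap. The median was 0.13, and 0.04 without NR4A1 replicate 2, in which 13 of the 18 genes were highest. The share of all genes that were highest in that library is not given here. Dusp4, a phosphatase of MAP kinases, had 378, 857 and 456 counts in the NR4A1 libraries and 140, 97 and 122 in the vector libraries. Its log2 fold change was 2.31 (SE 0.30, adjusted p = 0.0457), and 1.90 without NR4A1 replicate 2 (adjusted p = 0.00943, both edgeR). The call was lost when any 1 of the other 5 libraries was left out, and over 16 alternatives the adjusted p ran from 1.17e-10 to 0.254 with 7 calls. Dusp5, a phosphatase of ERK, had 101, 342 and 98 counts against 51, 47 and 42, and a log2 fold change of 2.01 (adjusted p = 0.353), or 1.20 without NR4A1 replicate 2 (adjusted p = 0.112, edgeR). Cdkn1a, the cell cycle inhibitor p21, had 643, 1788 and 826 counts against 492, 496 and 486, and a log2 fold change of 1.21 (adjusted p = 0.460). Its value without NR4A1 replicate 2 was 0.68 (adjusted p = 0.0499, edgeR), under the 2-fold limit. DESeq2 called both Dusp5 (2.01, adjusted p = 0.0116) and Cdkn1a (1.20, adjusted p = 0.0190). Dusp6 and the ETS factor gene Etv5 had smaller values of 0.36 and 0.30 (adjusted p = 0.394 and 0.402), and Junb, an AP-1 subunit, was at the lower end of the list at -0.12.

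**Figure D4:**
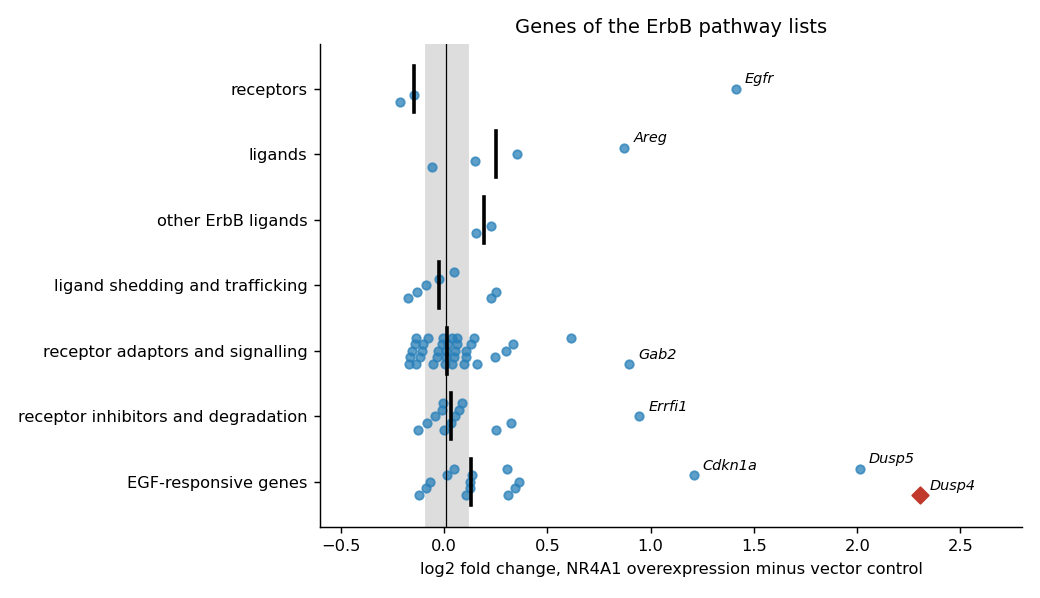
Log2 fold change (NR4A1 overexpression minus vector control) of each tested gene in the receptor, ligand and pathway lists; black bars are list medians, the line and grey band are the median and quartiles of all 12941 genes, and the red diamond is the called gene. Most genes lie near the band, and Dusp4 (2.31), Dusp5 (2.01), Egfr (1.41) and Cdkn1a (1.21) lie furthest to the right.

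NR4A1 replicate 2 was the highest library for 1 of the 3 receptors with counts and for 5 of the 6 ligands. In CPM it was 98.7 times the next highest library for Ereg and 2.21 times for Egfr. The ratio was 1.64 for Tgfa, 1.47 for Epgn, 1.06 for Areg and 1.05 for Hbegf. The share of all genes that were highest in this library is not given here. Markers of other cell types were high in the same library. Summed smooth muscle markers were at 320.5 CPM there and at 1.49 to 2.72 CPM in the other 5 libraries, with 6 of 6 highest there and Acta2 at 3841 counts against 3 to 15. Summed endothelial markers were at 88.5 CPM against 6.85 to 7.77 CPM, with 5 of 6 highest there. Cdh5 (419 counts), Kdr (38 counts) and Cldn5 (3 counts) were at 0 in the other 5 libraries. Pecam1 had 633 counts against 5 to 14, and Emcn 304 against 0 to 1. Tek went the other way, with 89 counts there and 102 to 127 elsewhere. Summed fibroblast markers were at 1566 CPM against 918 to 1043 CPM. Dcn made most of that sum in every library and did not stand out, with 14744 counts there and 14138 to 17269 elsewhere. Lum had 49 counts there and 48 to 75 elsewhere. The other 6 fibroblast markers were highest there, among them Col1a1 at 4189 counts against 84 to 303 and Thy1 at 525 against 0 to 25. Immune markers were at 4.59 CPM against 1.91 to 3.46 CPM, and Ptprc, which defines white blood cells, had at most 1 count in any library. Summed lung epithelial markers were at 1007 CPM, within the 882 to 1131 CPM of the other libraries.

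For 6 of the 8 fibroblast markers vector replicate 1 was second to NR4A1 replicate 2. Col1a2 had 4504 counts in NR4A1 replicate 2, 284 in vector replicate 1 and 10 to 45 elsewhere, while in vector replicate 1 Ereg had no count and Egfr was at 7.23 CPM, the highest of the vector libraries. Without both libraries the log2 fold change of Egfr was 1.08 and that of Areg 0.34, neither called. The part of these markers in the values of Ereg, Egfr, Tgfa, Errfi1, Dusp5 and Cdkn1a was not tested.

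**Figure D5:**
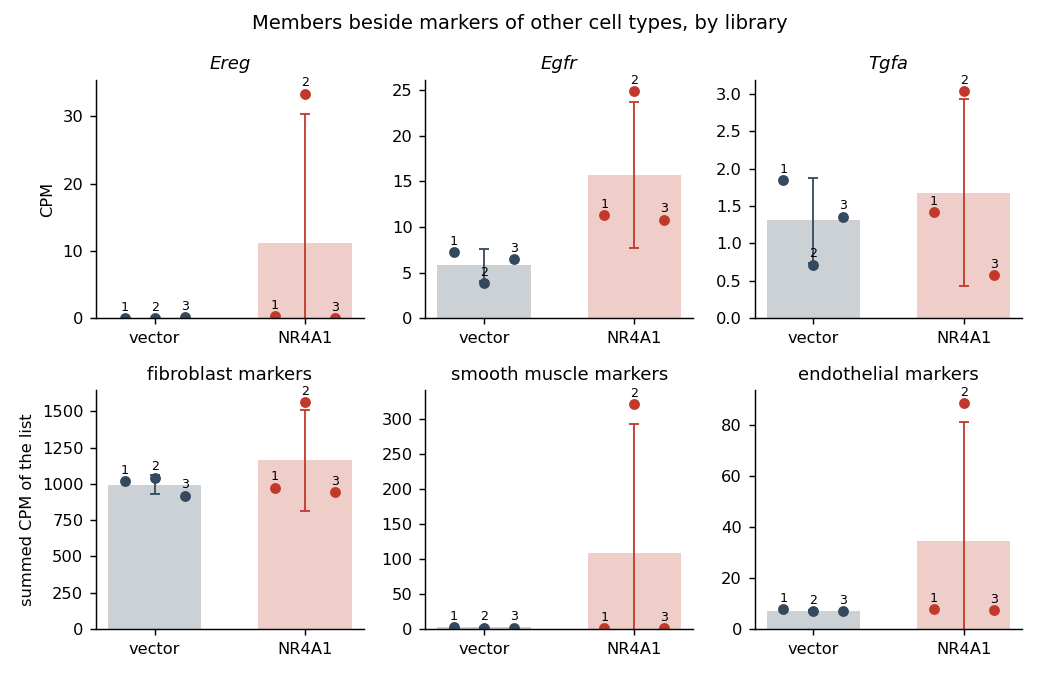
CPM of Ereg, Egfr and Tgfa (top) and summed CPM of 3 lists of markers of other cell types (bottom) in each library, on linear axes from 0; points are libraries with their replicate number, bars are group means and error bars are SD (n = 3). NR4A1 replicate 2 is the highest library in all 6 panels, by the smallest margin for the fibroblast list.

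The genes most like Ereg over the 6 libraries were Pax1, Palmd, Itih5, Prl2c2 and Ldoc1l, each with a Pearson r of log2(FPKM + 1) above 0.99. All 5 had 1 count in NR4A1 replicate 1, 32 to 237 counts in NR4A1 replicate 2 and 0 counts elsewhere, so the likeness rests on 1 library, and 441 of 14305 genes reached it. Of the pathway list genes that were not tested, Adam12, Fosl1, Spry4, Plcg2, Rhbdl2 and Nrg2 also had most of their counts there. They were chosen after their values were seen. Adam12 had 504 counts in NR4A1 replicate 2 and at most 19 in any other library, Fosl1 202 and at most 7, and Spry4 65 and at most 11. Plcg2 had 36 and at most 1, Rhbdl2 9 and at most 1, and Nrg2 7 and at most 2. Nrg4 and Cblc did not have most of their counts there, and Nrg3 had no count.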

How the data were processed

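RNA-seq was done on 6 libraries of MLE-12 cells, 3 with NR4A1 overexpression and 3 with the pCMV-SPORT6 vector. The submitters' processing notes name HISAT2 2.0.4 and GRCm38.p4. The counting program, its strand setting, the annotation and any filter are not given in the sources used here. The deposited table holds raw counts per gene, and FPKM values computed by the authors from them. In 10002 well-counted genes both imply 1 length per gene in all libraries (largest spread 0.000907%). Coordinates are those of the table, and 80.8% of shared identifiers had the same ones in GENCODE M21.

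Counts were tested with edgeR 4.0.16 (R 4.3.3; TMM, filterByExpr, quasi-likelihood test, no covariate) on the whole table, with Benjamini-Hochberg adjustment over 12941 genes. The log2 fold change is NR4A1 overexpression minus vector control, with SE and 95% interval from the same fit. Single genes were also compared by an exact permutation test on log2(CPM + 0.5). Genes named were all 10 members, Nr4a1, the list genes that were called, or did not overlap at an unadjusted p under 0.05, the list genes furthest up and down, and the 5 genes most like Ereg. Members and lists were chosen with earlier results of these data known. Alternatives were DESeq2 1.42.0, median-ratio factors, library totals, Nr4a1 left out, other count filters and thresholds, a replicate block, each library left out, and limma 3.58.1 on log2(FPKM + 1) and log2(FPKM + 0.1). Leaving out NR4A1 replicate 2 with vector replicate 1, and GENCODE lengths, were added after seeing the data. The 3-count floors and the exact interval of the Ereg ratio cover counting error only.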

Additional observations from a re-analysis of the deposited data

How the results depend on the processing

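The 7 tested members gave 110 values under 16 alternatives, of which 105 kept their direction and their side of the threshold. Egfr passed the adjusted threshold by DESeq2 alone (log2 fold change 1.41). Leaving out single libraries gave log2 fold changes of -0.18 to 0.073 for Btc and -0.41 to 0.76 for Tgfa, and both changed sign without NR4A1 replicate 2. Without that library and vector replicate 1 they were 0.086 and -0.088. The cause was not tested. No member was called lower, and DESeq2 and the unadjusted p each called 1 member higher. Over all genes 22 were called higher and 0 lower. DESeq2 called 63 and 2, the unadjusted p 144 and 17, a mean of 10 counts 8 higher, limma 7 (FPKM + 1) and 8 (FPKM + 0.1) higher, no fold threshold 1 lower, leaving out single libraries 3 to 25 higher and 0 to 3 lower, and leaving out NR4A1 replicate 2 with vector replicate 1 43 and 4. Of the pathway genes 1 was called higher. DESeq2 called 3, the unadjusted p 3, no fold threshold 2, leaving out single libraries 0 to 1, and a mean of 10 counts and both limma fits 0. With GENCODE lengths the vector means of Erbb2, Btc and Hbegf moved to 30.4, 1.88 and 6.42 FPKM. Replicate numbers were not found to pair the samples (correlations of same-numbered deviations -0.0111, -0.046 and 0.246). With the replicate block 5 genes were called higher and 0 pathway genes, and the block changed no member's call. Depth limits Ereg, Epgn, Areg and Tgfa most, each with at most 51 counts in a library apart from the 560 of Ereg.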
